A study of Canis lupus familiaris with 8 samples.

Results

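The miR-30 family is represented by 5 mature miRNAs, miR-30a, miR-30b, miR-30c, miR-30d and miR-30e, of 452 miRNAs in the deposited table. Members were taken by name (cfa-miR-30a, cfa-miR-30b, cfa-miR-30c, cfa-miR-30d and cfa-miR-30e, where cfa stands for the dog), and miR-30c, which has 2 loci, is represented by the locus of higher mean signal. All 40 member values (5 members in 8 libraries) lay above the lowest value of the table, which is 1, and all 5 members passed the filter on low values. The libraries hold small RNA from vesicles (exosomes) shed into serum-free medium by dog mammary cells over 48 hours. They come from 5 canine mammary tumour lines of carcinoma origin (CMT-12, CMT-27, CMT-28, CMT-47 and CMT-119, 1 library each) and from 3 samples of normal canine mammary epithelial cells (CMEC1, CMEC2 and CMEC3, numbered as biological replicates). The labels give no treatment, genotype or donor dog, and each tumour line is a single line, so the spread among CMT libraries is a spread between lines. The study compared the vesicle miRNAs of malignant and normal cells.

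miRNAs of this family carry the same seed, the short 5′ stretch that selects target mRNAs, so members are expected to repress overlapping sets of genes. In human breast cancer cells the family has been described as holding back self-renewal and the loss of epithelial character. In mice, excess miR-30b disturbs the lactating mammary gland, and miR-30 members are among the miRNAs found in milk.

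The members lie at 6 loci in 3 pairs. In canFam3 coordinates as the table gives them, miR-30a is on chromosome 12 from 33783934 to 33783956, and 1 of the 2 miR-30c loci lies 25973 bases away, at 33757937 to 33757960. The other miR-30c locus is on chromosome 15 from 2280087 to 2280110, and miR-30e lies 3195 bases from it, at 2283306 to 2283327. miR-30b is on chromosome 13 from 30906076 to 30906097, with miR-30d 4244 bases away at 30910342 to 30910365. All 6 loci are on the minus strand, and the listed mature lengths run from 22 to 24 bases. In the RefSeq genes of a different dog assembly (UU_Cfam_GSD_1.0), the chromosome 15 hairpins overlap NFYC, a gene for a subunit of the transcription factor NF-Y. The other 2 pairs there overlap the long non-coding RNAs LOC119874195 (miR-30a and miR-30c) and LOC119864727 (miR-30b and miR-30d). The 2 miR-30c loci had identical values in 6 of 8 libraries and differed by 1 read in CMEC1 and in CMEC2. Their reads were therefore counted at both loci, and miR-30c cannot be assigned to either pair. Members of this family are also close to each other in sequence, and how reads that match several members were assigned is not given in the sources used here.

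Values are normalised signals on the authors' linear scale. They behaved as reads divided by 1 factor per library, so whole reads could be recovered, from 81138 in CMT-12 and 85906 in CMEC2 to 1405893 in CMT-27. One read was worth between 0.386 (CMT-28) and 2.83 (CMEC2). Because the factor differs between libraries, shares and ratios within a library are given first, as neither depends on it. Shares of the library do depend on its other miRNAs, above all on miR-21, the leading miRNA. miR-21 held 24.9% of the summed signal in CMT-12, 27.9% in CMEC2 and 32.5% in CMEC3, and 49.6% (CMT-27) to 63.1% (CMT-28) in the others. Orders of the libraries by share therefore depend on miR-21 too, and some differ when it is left out of the sum. Intervals are exact 95% binomial intervals on recovered reads and cover counting error only. Epithelial markers were low in the samples labelled as normal epithelial cells: of 7, miR-141 was at the lowest value in every library, and together they held 0.0036% to 0.0210% of the summed signal in CMEC. Their share reached 2.13% in CMT-12 and 1.68% in CMT-27, and was at most 0.0073% in the other lines. Mesenchymal or smooth muscle markers (4, each above the lowest value in at least 3 libraries) held 1.68% in CMEC1, 18.5% in CMEC2 and 13.0% in CMEC3. In the lines they held from 0.0152% (CMT-27) to 13.9% (CMT-47). Most of this sum was miR-143 in every library, and the 4 markers did not move together. In CMT-47 the signal of miR-143 was 100702 and that of miR-199 12.5. miR-214 was at the lowest value in CMT-47, CMT-27, CMT-119 and CMEC1.

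The share of the whole family in the vesicle profile varied widely within both groups. It held 4.56% of the summed signal in CMT-12, 4.91% in CMT-119, 2.94% in CMT-27, 3.86% in CMT-47 and 0.759% in CMT-28. In the normal samples it held 6.52% in CMEC1, 1.04% in CMEC2 and 0.597% in CMEC3. CMEC1 was thus the highest of the 8 libraries and CMEC3 the lowest, a range of 10.9-fold. The mean was 3.41% ± 1.66 over the CMT lines (SD, n = 5) and 2.72% ± 3.30 over the CMEC samples (SD, n = 3), and the CMEC mean without CMEC1 was 0.820%. These sums over members were not tested.

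miR-30a and miR-30d made up most of the family in every library, together between 71.9% (CMT-28) and 99.2% (CMT-12). Which of the pair led differed between libraries of the same group. miR-30d exceeded miR-30a by 26.1-fold in CMT-12, 3.38-fold in CMT-27, 5.11-fold in CMT-28, 4.48-fold in CMEC2 and 4.06-fold in CMEC3. miR-30a exceeded miR-30d by 1.80-fold in CMT-47, 2.42-fold in CMT-119 and 4.07-fold in CMEC1. Neither kind of library belonged to 1 group alone, as each included tumour lines and normal samples.

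**Figure D1:**
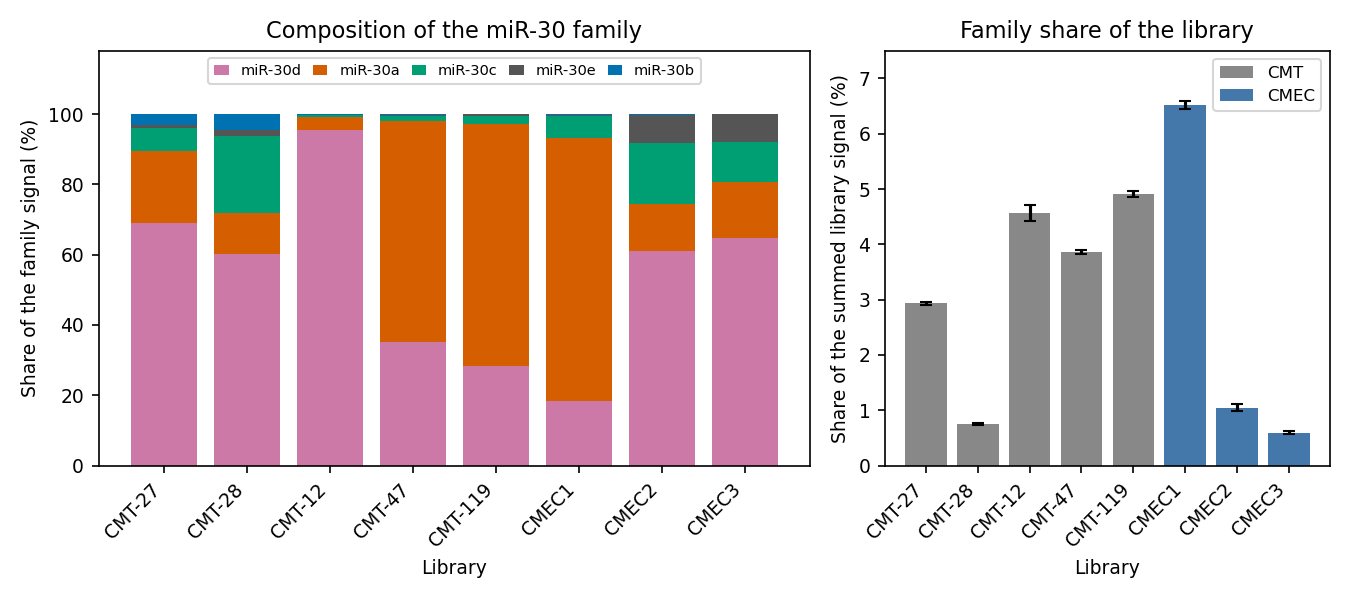
Left, the share of each member in the summed signal of the family (%, stacked bars) by library. Right, the share of the family in the summed signal of the library (%, bars, with exact 95% binomial intervals on recovered reads). miR-30a exceeds 60% of the family in CMT-47, CMT-119 and CMEC1, and miR-30d exceeds 60% in the other 5 libraries.

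miR-30a, described in human breast cancer cells as a repressor of vimentin and elsewhere of the autophagy gene BECN1, was the most uneven member by the SD of its log2 signal. Its deposited signal was 315 in CMT-12, 16308 in CMT-119, 5849.8 in CMT-27, 17666 in CMT-47 and 292 in CMT-28. In the normal samples it was 21448 in CMEC1, 346 in CMEC2 and 457 in CMEC3. In deposited signal, CMEC1, CMT-47, CMT-119 and CMT-27 were thus each more than 10 times as high as any of CMT-12, CMT-28, CMEC2 and CMEC3. Tumour lines and normal samples stood on both sides. By share of the library, CMEC1, CMT-47 and CMT-119 kept this gap. CMT-27 (0.601%) did not, against CMT-12 (0.167%) or any other of the low libraries.

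As a share of the library, miR-30a was at 4.87% in CMEC1 (rank 3 among the miRNAs of that library), 3.37% in CMT-119, 2.44% in CMT-47 and 0.601% in CMT-27. It was at 0.167% in CMT-12, 0.142% in CMEC2, 0.0952% in CMEC3 and 0.0894% in CMT-28. In this order the intervals of CMT-12 and CMEC2 overlapped, as did those of CMEC3 and CMT-28, and no other neighbours did. The shares spanned 54.5-fold over the 8 libraries. For miR-30b the span was 166-fold, but its lowest share rests on 2 reads, and for the other members it was 8.27-fold to 26.1-fold. Of the family, miR-30a made up 74.8% in CMEC1 (interval 74.3% to 75.3%), 68.7% in CMT-119 and 63.0% in CMT-47. Elsewhere its part was 20.5% in CMT-27, 15.9% in CMEC3, 13.6% in CMEC2, 11.8% in CMT-28 and 3.67% in CMT-12 (interval 3.09% to 4.32%). This part spanned 20.4-fold, less than that of miR-30c (62.4-fold), miR-30b (52.8-fold) and miR-30e (46.4-fold), and more than that of miR-30d (5.21-fold).

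Among the normal samples, the share of miR-30a in CMEC1 was 34.4 times that in CMEC2 and 51.2 times that in CMEC3. Ranked by the ratio of CMEC1 to the higher of the other CMEC shares, it was number 6 of the 193 miRNAs above the lowest value in at least 3 libraries. The median ratio of these 193 was 1.06, and 13 of them (6.74%) reached 10 or more. miR-140 had the highest ratio, at 103. Of the other members, miR-30b had a ratio of 4.82, miR-30c of 2.30 and miR-30d of 1.88, while miR-30e went the other way with 0.137. CMEC1 also had a lower summed share of mesenchymal markers than CMEC2 and CMEC3, as given above. By signal, miR-143, miR-199 and miR-214 were lower in CMEC1 than in both. miR-145 was not, at 76.1 in CMEC1, 96.3 in CMEC2 and 19.4 in CMEC3. Skeletal muscle markers held 0.0435% of the summed signal in CMEC1, 1.49% in CMEC2 and 0.230% in CMEC3. Of these, miR-206 was at the lowest value in CMEC1 and in every tumour line, against 2570 in CMEC2 and 298 in CMEC3. miR-1 was also lower in CMEC1 than in both, and miR-133a was higher. The part of cell makeup in the miR-30a difference was not tested. In medium from a whole culture, fewer releasing cells and less RNA released per cell cannot be told apart.

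**Figure D2:**
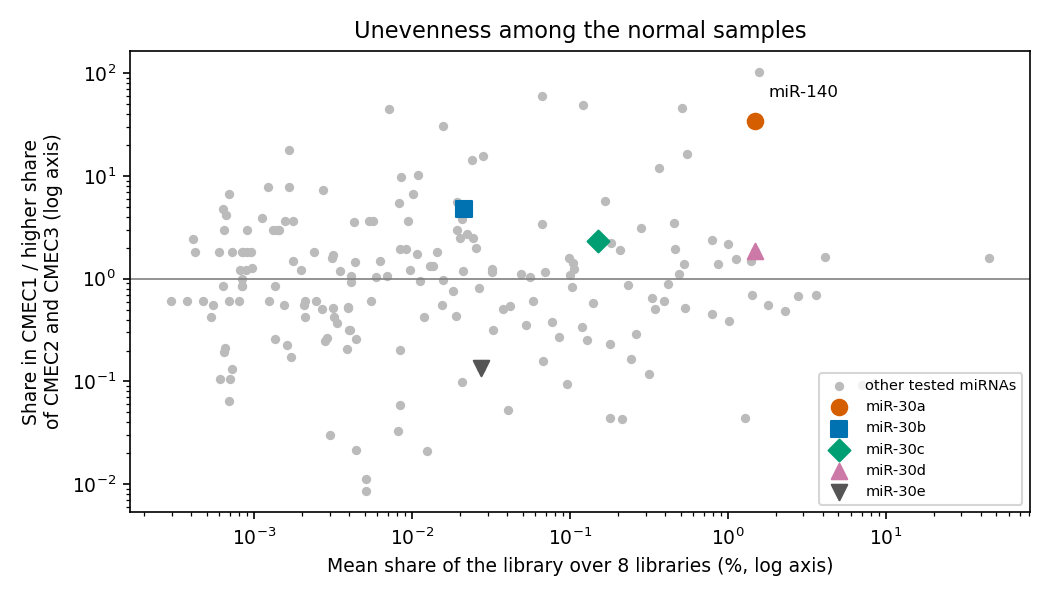
Each point is 1 of 193 miRNAs. The x axis is its mean share of the library over 8 libraries (%, log axis) and the y axis is its share in CMEC1 divided by the higher of its shares in CMEC2 and CMEC3 (log axis). miR-30a lies at 34.4 and miR-140, the highest, at 103, and miR-30e at 0.137 is below the line of equal shares.

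miR-30d, which human endometrium has been described to release in vesicles, was abundant in every library. Its deposited signal was 8219.9 in CMT-12, 6743 in CMT-119, 19748 in CMT-27, 9835 in CMT-47 and 1494 in CMT-28, against 5264 in CMEC1, 1549.8 in CMEC2 and 1858 in CMEC3. It ranked between number 5 and number 19 of all miRNAs in every library. Of the 5 tumour lines, 4 exceeded all 3 normal samples, and CMT-28 was below all 3.

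In shares of the library, miR-30d ran from 4.36% in CMT-12 through 2.03% in CMT-27, 1.39% in CMT-119, 1.36% in CMT-47, 1.20% in CMEC1 and 0.636% in CMEC2 to 0.457% in CMT-28 and 0.386% in CMEC3. Only CMT-119 and CMT-47 had overlapping intervals among neighbours in this order. CMT-12, the highest, was also the library in which the liver miRNA miR-122 held 9.74% of the signal, against at most 0.277% elsewhere, and the part of that signal in the miR-30d share was not tested. With each library centred on its median, miR-30d had an SD of 0.75 over the 8 libraries (log2), the smallest of the members and rank 161 of 193 from the most variable. The SD was 2.63 for miR-30a (rank 18), 1.79 for miR-30c (rank 44), 1.67 for miR-30b (rank 53) and 1.62 for miR-30e (rank 56), and the median of the 193 was 1.24. Without centring, miR-30e had a slightly smaller SD (1.29) than miR-30d (1.39), and miR-30a the largest (2.90). miRNAs often at the lowest value have little room to vary, so these ranks are descriptions.

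**Figure D3:**
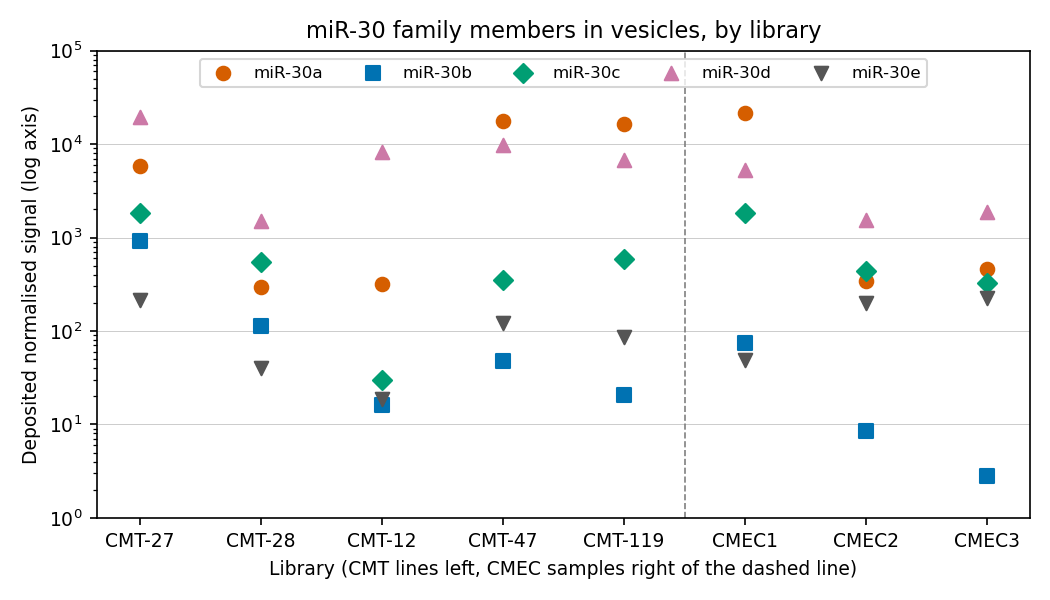
Deposited normalised signal (log axis) of the 5 members in each library, with the 5 CMT lines left and the 3 CMEC samples right of the dashed line. miR-30a ranges from 292 in CMT-28 to 21448 in CMEC1, and miR-30d from 1494 to 19748.

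miR-30c, studied in human breast cancer in connection with response to chemotherapy, was at an intermediate level. Its deposited signal was 30.1 in CMT-12, 596 in CMT-119, 1833 in CMT-27, 353 in CMT-47 and 544 in CMT-28, and 1839.6 in CMEC1, 442 in CMEC2 and 324 in CMEC3. CMT-12 was far below the rest, with 13 recovered reads, and the groups overlapped. By share of the library, CMEC1 led with 0.418%, followed by CMT-27 (0.188%), CMEC2 (0.181%), CMT-28 (0.166%), CMT-119 (0.123%), CMEC3 (0.0675%), CMT-47 (0.0487%) and CMT-12 (0.0160%). The intervals of CMT-27 and CMEC2 overlapped, as did those of CMEC2 and CMT-28. As a part of the family it reached 21.9% in CMT-28 and 17.4% in CMEC2, more than miR-30a in the same libraries.

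miR-30e, reported in human breast tumour-initiating cells to repress the SUMO-conjugating enzyme UBC9, was a small part of the family except in CMEC2 and CMEC3. Its deposited signal was 18.5 in CMT-12, 86.8 in CMT-119, 213 in CMT-27, 121 in CMT-47 and 40.6 in CMT-28, and 49.0 in CMEC1, 198 in CMEC2 and 227 in CMEC3. It made up 7.80% of the family in CMEC2 (interval 6.13% to 9.75%) and 7.92% in CMEC3 (6.80% to 9.17%). In the 5 tumour lines its part ran from 0.216% (CMT-12) to 1.63% (CMT-28), and in CMEC1 it was 0.171%, the lowest of all 8 libraries. As a part of the family, miR-30e in CMEC1 thus lay below the tumour lines, and in the other normal samples above them. The intervals of CMEC1 (0.125% to 0.228%) and CMT-12 (0.0932% to 0.425%, 8 reads) overlapped. In deposited signal this order did not hold, as CMEC1 exceeded CMT-12 and CMT-28, and CMEC2 was below CMT-27.

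By share of the library, miR-30e was highest in CMEC2 (0.0814%) and CMEC3 (0.0473%), which did not overlap each other or any other library. The other 6 libraries lay between 0.00984% (CMT-12, 8 reads) and 0.0219% (CMT-27), and each neighbouring pair in that order had overlapping intervals.

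miR-30b, linked with miR-30d to invasion in human melanoma, was the least abundant member in CMT-12, CMT-47, CMT-119, CMEC2 and CMEC3. Its deposited signal was 16.2 in CMT-12, 20.6 in CMT-119, 929.7 in CMT-27, 47.9 in CMT-47 and 114 in CMT-28, against 74.0 in CMEC1, 8.50 in CMEC2 and 2.77 in CMEC3. The values of CMEC2 and CMEC3 rest on 3 and 2 reads and that of CMT-12 on 7. Its share was highest in CMT-27 (0.0956%) and CMT-28 (0.0347%), whose intervals stood apart from each other and from all the rest. From CMEC1 (0.0168%) down to CMEC3 (0.00058%), every neighbouring pair of libraries overlapped. In CMT-27 and CMT-28 it also made up more of the family (3.25% and 4.57%) than in the other 6 libraries, where it held at most 0.334%.

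Neighbouring loci did not keep a fixed ratio in the vesicles. The log2 ratio of miR-30b to miR-30d, which lie 4244 bases apart, ran from -9.39 in CMEC3 to -3.72 in CMT-28, with -4.41 in CMT-27 and between -8.98 and -6.15 in the others. Its SD over the 8 libraries was 2.08, and its values in CMEC3, CMEC2 and CMT-12 rest on 2, 3 and 7 reads of miR-30b. miR-30c to miR-30e, 3195 bases apart, had the smallest SD of the 10 member pairs, 1.65, and ran from 0.51 in CMEC3 to 5.23 in CMEC1. miR-30a to miR-30c had an SD of 2.42, with 5.64 in CMT-47 at one end and -0.89 in CMT-28 at the other. The pairs with no shared chromosome had SDs from 1.96 (miR-30d to miR-30e) to 3.01 (miR-30a to miR-30e). Since miR-30c reads were counted at 2 loci, its ratios mix both.

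**Figure D4:**
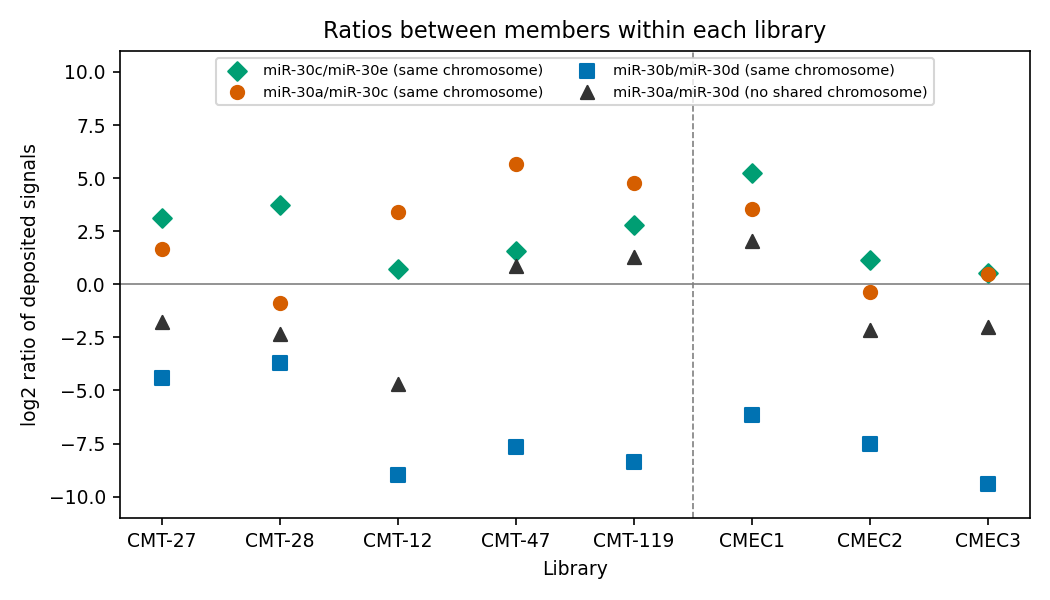
log2 ratio of the deposited signals of 2 members within each library, for the 3 pairs that share a chromosome and for miR-30a to miR-30d. The dashed line divides the 5 CMT lines from the 3 CMEC samples. Ratios of miR-30a to miR-30d above 0 occur in CMT-47, CMT-119 and CMEC1, the libraries led by miR-30a.

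No member passed the test of a difference between CMT and CMEC, given the spread among libraries. log2(signal + 1) was compared with limma over the 193 miRNAs, with Benjamini-Hochberg adjustment over all of them, as CMT minus CMEC with 5 against 3 libraries. limma called 0 of 193 (0%) at an adjusted p under 0.05, and 21 (10.9%) had an unadjusted p under 0.05, none of them a member. The groups did not overlap for 18 of the 193 (9.33%), and overlapped for all 5 members.

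miR-30b had the largest difference of the members, 2.37 ± 1.51 (SE; 95% interval -0.82 to 5.56; limma adjusted p = 0.537). Its values in CMEC2 and CMEC3 rest on 3 and 2 reads. With 10 in place of 1 added to the signal, the difference was 1.71 for miR-30b and 1.48 for miR-30d. miR-30d was at 1.49 ± 0.96 (-0.55 to 3.52; limma adjusted p = 0.537), and 4 of 5 lines exceeded every normal sample. miR-30a was at 0.87 ± 1.58 (-2.48 to 4.22; limma adjusted p = 0.781), an interval that allows a large difference either way. miR-30c was at -0.81 ± 1.22 (limma adjusted p = 0.776) and miR-30e at -0.88 ± 1.17 (limma adjusted p = 0.769). Of all 193 miRNAs, 141 (73.1%) had a difference above 0 on this scale, with a median of 0.75, against 3 of the 5 members, with a median of 0.87. By definition about as many miRNAs lie above as below that median (49.7% above), and 3 of the 5 members lay above it. Relative to it, miR-30b was at 1.63, miR-30d at 0.74, miR-30a at 0.12, miR-30c at -1.56 and miR-30e at -1.63. The direction of miR-30a depended on scaling, with -0.32 after quantile normalisation and 0.03 after median centring, and the other 4 members kept their sign.

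These differences moved when CMEC1 was left out. Without it miR-30a was at 2.78 (limma adjusted p = 0.383), miR-30b at 3.59 (0.367), miR-30d at 2.03 (0.383), miR-30c at -0.05 (0.993) and miR-30e at -1.58 (0.529). limma then called 6 of 178 miRNAs, none of them a member. miR-30a was at -0.19 without CMEC2 and at 0.011 without CMEC3.

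**Figure D5:**
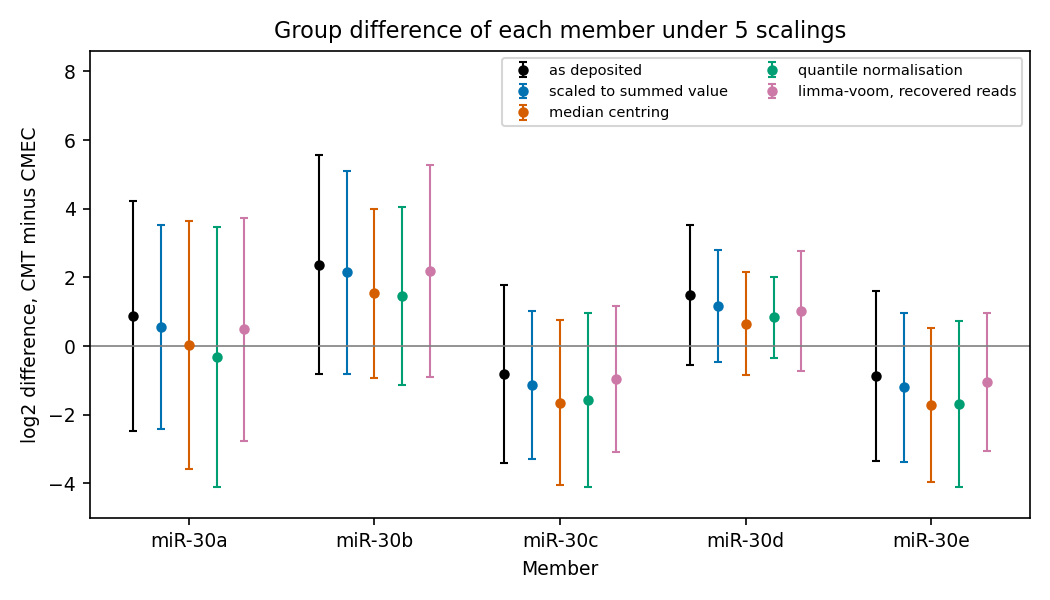
log2 difference (CMT minus CMEC, 5 against 3 libraries) of each member with its 95% interval from limma, as deposited and under 4 other scalings. Every interval includes 0, and miR-30a is the member whose estimate lies on both sides of 0.

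Shares of the library were compared as well. An exact two-sided permutation test over the 56 splits, run for each of the 193 miRNAs, called 0 after adjustment over all of them, and 10 (5.18%) had an unadjusted p under 0.05. The smallest p this design allows is 0.0179, and a call would have needed at least 69 of the 193 miRNAs at that p, where 5 had it. The count of 0 therefore decides nothing, and the sizes are given as descriptions. The mean share of miR-30e was 0.0157% ± 0.0047 over 5 CMT lines (SD) and 0.0466% ± 0.0351 over 3 CMEC samples (SD), with an exact permutation p of 0.0893 (adjusted p = 0.829). For miR-30d these means were 1.92% ± 1.48 and 0.740% ± 0.415 (exact permutation p = 0.232, adjusted p = 0.829). miR-30a had 1.33% ± 1.48 against 1.70% ± 2.75 (exact permutation p = 0.893), and this difference changed sign without CMEC1, when it was 1.21 percentage points. miR-30c had 0.108% ± 0.074 against 0.222% ± 0.179 (exact permutation p = 0.232) and miR-30b 0.0300% ± 0.0387 against 0.0070% ± 0.0087 (exact permutation p = 0.446), in the same order of groups. The adjusted p was 0.829 for both and 0.971 for miR-30a. Single libraries carried several of these differences (CMT minus CMEC, percentage points). That of miR-30b was 0.0230 with all libraries and 0.0066 without CMT-27, and that of miR-30d was 1.18 with all libraries and 0.570 without CMT-12. For miR-30c the difference was -0.114 with all libraries, -0.0159 without CMEC1 and -0.191 without CMEC3. For miR-30e it was -0.0309 with all libraries, -0.0135 without CMEC2 and -0.0486 without CMEC1.

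The miRNAs whose pattern over the 8 libraries was most like that of a member differed from member to member. Likeness is Pearson's r of log2(signal + 1), each library centred on its median, over the 188 tested miRNAs outside the family. As the libraries differ in depth and share their centring, r is a description. Spearman's rho, the correlation of ranks, was lower for several of the 3 miRNAs nearest to each member. It was 0.71 to 0.93 for miR-30a, 0.55 to 0.83 for miR-30b and 0.45 to 0.69 for miR-30c. For miR-30d it was 0.64 to 0.90, and for miR-30e 0.90 to 0.95.

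For miR-30a the nearest were miR-140, known from cartilage, with r = 0.94, miR-221, described in human cells to repress the cell cycle inhibitor p27, with 0.93, and miR-8859a with 0.92. miR-140 was at 35053 in CMEC1, 18236 in CMT-47 and 6360.3 in CMT-119, and at 105 to 2395 in the other libraries. Both miRNAs were thus high in the same 3 libraries. For miR-30d they were miR-1839 (0.91), miR-192, which responds to p53 in human cells (0.85), and miR-122 (0.82).

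miR-30e was most like miR-8884 (0.96), miR-148a, a miRNA abundant in milk (0.94), and miR-328 (0.91). miR-148a was at 59424 in CMEC2 and 120309 in CMEC3, against 3858 to 32165 in the other libraries, so it shared with miR-30e its high shares in these 2 samples. miR-30c was nearest to miR-26a (0.89), miR-98 (0.83) and let-7f (0.80), the last 2 of the let-7 family. For miR-30b the nearest were miR-135b (0.88), miR-15b, described to repress cell cycle genes in human cells (0.82), and miR-19b of the miR-17~92 cluster (0.82), all highest in CMT-27.

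Other miRNAs named with this family in 2 settings were compared over the same groups. Of 12 milk-abundant miRNAs outside the family, 5 lay above and 7 below the median of all, and 0 passed limma's threshold (median -0.40 relative to all). They held 14.4% to 23.9% of the summed signal in CMT vesicles, 16.7% in CMEC1, 41.2% in CMEC2 and 44.1% in CMEC3. In CMEC2 and CMEC3, miR-148a alone exceeded the other list members together, with signals of 59424 and 120309. Elsewhere miR-148a was at 3858 to 32165, so the high sums of CMEC2 and CMEC3 rest largely on 1 miRNA. CMEC1 lay within the range of the tumour lines for this list. Of 9 miRNAs described like miR-30 as holding an epithelial state, 6 could be tested: 5 lay above the median of all and 1 below, miR-34a, and 0 passed limma's threshold (median 1.17 relative to all). In CMT-27 and CMT-12, where the signal of miR-200c of this list was 13903 and 2022 against at most 25.5 elsewhere, the family was led by miR-30d. In CMT-28, where miR-200c was at the lowest value, it was led by miR-30d as well.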

How the data were processed

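The authors deposited a table of normalised signal for 511 mature miRNA loci in 8 libraries. The submitters' processing notes name canFam3. Aligner, counter, annotation version and normalisation: not given in the sources used here. From the deposited signal itself, 99.4% to 100% of values above 1 were, library by library, multiples of 1 step (tolerance 0.05 steps), so reads were recovered as signal over step. This is a reading of the values, not of a label. Where a miRNA had more than 1 locus (45 miRNAs), only that of highest mean signal was used. miRNAs above 1 in at least 3 libraries (193) were fitted as log2(signal + 1) with limma 3.58.1 (trend) in R 4.3.3, threshold 0.05. Such fold changes understate those of low miRNAs. Exact permutation tests and intervals used Python 3.11.15 and scipy 1.17.1. The tests were tried on simulated data first. CMT lines are separate lines. Whether the CMEC samples came from separate dogs is not stated, and p-values then reflect only the spread among the samples at hand, which may be technical. No batch label was given.

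The members and lists were chosen with earlier results of these data known. Named were the 5 members, the 3 miRNAs most like each, and miR-21 and miR-140. Marker and context lists are described by counts, medians, summed shares and the signals of some list members, without a test. The list members miR-141, miR-200c, miR-34a, miR-143, miR-145, miR-199, miR-214, miR-206, miR-1 and miR-133a were named after their values were seen. So was miR-148a as a member of the milk list. Of the marker lists, blood cell markers held at most 0.117% of a library, skeletal muscle markers at most 1.49% (CMEC2) and the liver marker up to 9.74% (CMT-12). miRNA sequences were not used here. Planned count models were not run, since the lowest value of 1 replaces low counts, and limma-voom was used in their place as an alternative.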

Additional observations from a re-analysis of the deposited data

Results flagged for a closer look

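In the 5 CMT lines, 26 values of the family were searched for a line that stands apart (member signals, shares and ratios, and the family share). Only 1 was found. Chance gives about 1 in every 20 values searched, so 1 of 26 is no more than chance gives. The values come from the same 5 members and are not independent. miR-30c made up 21.9% of the family in CMT-28 and 6.42% in the next line, CMT-27. Its mean part of the family in CMT was 6.48% ± 8.91 (SD, n = 5), and 2.63% without CMT-28. With 3 samples, CMEC was not searched.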

How the results depend on the processing

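Of 20 alternatives to the limma fit, limma called 0 miRNAs in all but 1, the fit without CMEC1, which called 6 (3 higher and 3 lower in CMT), so the range with each library left out was 0 to 6. The miR-30a difference reversed to -0.32 after quantile normalisation. With each library left out, the log2 difference of miR-30a ran from -0.19 to 2.78, miR-30b from 1.43 to 3.59, miR-30c from -1.39 to 0.077 (the latter without CMT-12), miR-30d from 1.11 to 2.04 and miR-30e from -1.58 to -0.41. No member passed in any of them, with limma adjusted p from 0.338 to 1. The share of miR-30a in the library (CMT minus CMEC) ran from -1.17 to 1.21 percentage points and was reversed without CMEC1, and the other members kept their sign. The family share in CMT was 6.62% when miR-21, the leading miRNA, was taken out of the sum. Taking it out raises the family share in the CMEC libraries too, so this value does not compare with the CMEC mean given above. With its 2 loci added, miR-30c made up 20.6% of the family in CMEC, by counting the same reads again. The miR-30b part of the family in CMT ran from 0.925% (without CMT-28) to 2.05%. Causes were not tested, except that added loci repeat reads. The median difference of all tested miRNAs was 0.75 as deposited, 0.52 per summed signal, 0.20 with limma-voom, 0.13 after quantile normalisation and -0.089 after median centring. Depth limits miR-30b in CMEC2 and CMEC3 (3 and 2 reads) and miR-30b, miR-30c and miR-30e in CMT-12 (7, 13 and 8 reads). No paired analysis was possible because the labels pair no CMT line with a CMEC sample.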
